A study of Mus musculus with 32 samples.

Results

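The transcripts bound by IGF2BP3 were compared between 2 populations of mouse leukemia cells, Lin- and CD11b+, by counting enhanced crosslinking-immunoprecipitation (eCLIP) peaks gene by gene. The comparison used the 5 eCLIP libraries that the labels call biological replicates, 3 of Lin- and 2 of CD11b+ cells, out of 32 libraries in the series. Every filtered peak of these libraries entered, 44663 peaks in all, and each was given to the host gene named in the peak record. Both populations carried MLL-Af4, a fusion of MLL (Kmt2a) with Af4 (Aff1) delivered by a retrovirus, and both were of WT genotype for Igf2bp3 and labelled as receiving no treatment. Lin- cells were bone marrow cells depleted of mature lineages, transduced with the construct, selected with G418 and grown in culture with cytokines that included SCF, FLT3 and IL-6. The CD11b+ population was selected with magnetic beads from spleen tumors of leukemic recipient mice. Cell type therefore goes together with culture against animal, and with bone marrow against spleen, and these cannot be told apart here, although the library names of both populations begin with "bm". The study describes its transplants as made with bone marrow of young adult female donors into lethally irradiated young adult females, and the age of the mice that gave the Lin- cells is not given in the sources used here.

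IGF2BP3 is an oncofetal RNA-binding protein that normally falls silent in most adult tissues and is expressed again in leukemia with MLL rearrangement. It binds messenger RNA through KH and RRM domains, is known for CA-rich target sequences and is best described as a factor that stabilizes transcripts or alters their translation. eCLIP crosslinks protein to RNA with ultraviolet light, recovers the bound fragments with an antibody and compares them with a size-matched input (smInput) made without the antibody. A peak therefore needs both the protein and its RNA, and in bulk samples fewer cells with a transcript and less RNA per cell cannot be told apart.

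Sequences of the peaks behind the gene-level results are given first, because they show what kind of RNA the antibody recovered. Each is a stretch of 30 bases on the transcript strand of GRCm38, centred on the peak found in most libraries of the cell type, and CACA is in capitals where it occurs. Dnah8 was the called gene of CD11b+ cells, and Bahcc1, Malat1 and Aff1 were those of Lin- cells. The second Aff1 stretch, Kmt2a and Zeb2 are shown because these genes had the highest peak shares among genes with a peak in all 5 libraries.
Dnah8, intron, chr17:30686865-30686894, plus strand: cttccttccttccttccttcccttcttgct
Bahcc1, intron, chr11:120284876-120284905, plus strand: agcatcctcctctgacccctgtggtcgtcc
Malat1, non-coding exon, chr19:5797375-5797404, minus strand: gaagcctttagtctcttccagattcaactt
Aff1, coding exon, chr5:103815013-103815042, plus strand: cagccataCACACAcccagtacagccgagc
Aff1, coding exon, chr5:103842289-103842318, plus strand: cagtctcctcttcctcatcctcccagaagc
Kmt2a, coding exon, chr9:44881201-44881230, minus strand: caccgggggcggcggcggcggggggcgccg
Zeb2, intron, chr2:45109911-45109940, minus strand: aaggaagccggtggcggcgcctggggctcg
The Dnah8 peak was found in both CD11b+ and no Lin- library, and those of Bahcc1 and Malat1 in all 3 Lin- and no CD11b+ library. The first Aff1 peak was likewise found in 3 Lin- and 0 CD11b+ libraries. The second Aff1 peak was found in 3 Lin- libraries and 1 CD11b+ library, and the Kmt2a peak in 2 Lin- and 2 CD11b+ libraries. The Zeb2 peak was present in all 5 libraries, with 19, 171 and 57 reads in Lin- and 80 and 357 reads in CD11b+ replicates.

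Many Lin- peaks, and a smaller share of CD11b+ peaks, were centred near an intron's 3' end. A second set therefore shows the 3' splice sites with the most reads in each pattern of libraries. The bases in capitals are the first 6 of the exon and the 24 before them are intron. The sites were chosen after their values had been seen, and sites on Kmt2a and Aff1 or inside more than 1 gene were left out.
Serinc3, chr2:163639322-163639351, minus strand: tggcccatggtgttgctcttaaagGTCCCG
Hspa8, chr9:40804439-40804468, plus strand: tgattttgtaactttcatcatcagGCCGCT
Srrm2, chr17:23812404-23812433, plus strand: cccctgccctccattaactcacagGTCTCG
Hnrnph1, chr11:50379797-50379826, plus strand: actaattctaagcacctctttcagTATTCA
Csf2ra, chr19:61226050-61226079, minus strand: cggccacgcttcccgcccttacagAGCGAC
Klf2, chr8:72319402-72319431, plus strand: cgtcccgcgccctgtctcctgcagCGCTGG
The sites of Serinc3 and Hspa8 had peaks in all 3 Lin- and in no CD11b+ library, those of Srrm2 and Hnrnph1 in all 5 libraries, and those of Csf2ra and Klf2 in both CD11b+ and no Lin- library. In all 6 the intron part ends in AG, as introns usually do, which follows from placing the stretches at annotated 3' splice sites.

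The 3 Lin- libraries held 7361, 10042 and 8685 filtered peaks on 3855, 5056 and 4488 genes, and the 2 CD11b+ libraries 8521 and 10054 peaks on 4177 and 4874 genes. Because libraries differed in yield, a gene's peaks were expressed as its peak share, the number of its filtered peaks per 10000 filtered peaks of the library. Sequencing depth is unknown, so the lack of a peak does not show that a transcript was unbound. Of 9290 genes with a peak in any of these libraries, 4263 had peaks in both cell types, 3085 only in Lin- and 1942 only in CD11b+ libraries, but 3359 genes had a peak in exactly 1 library. One library stood apart from the others of its cell type before any comparison. Lin- replicate 2 had no peak on Xist and Neat1, long non-coding RNAs with 90 and 40 (Xist) and 25 and 17 (Neat1) peaks in Lin- replicates 1 and 3, and it also had the fewest peaks near 3' splice sites of the Lin- libraries. Its filtered peaks held 233695 reads, against 82467 and 73052 in Lin- replicates 1 and 3. Their median length was 40 bases, against 51 and 48.

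Differences between the cell types were tested with limma on log2(peak share + 0.5) for the 2778 genes with at least 5 peaks over the 5 libraries. Dnah8 was higher in CD11b+ cells and Aff1, Bahcc1 and Malat1 were higher in Lin- cells at a Benjamini-Hochberg adjusted p below 0.05. These are 0.036% and 0.108% of the genes tested, 0.144% in both directions together. At an unadjusted p below 0.05 there were 636 genes, 301 higher in CD11b+ and 335 higher in Lin- cells. Whether the labelled replicates came from separate animals is not stated, so the p-values measure the spread between these libraries. Without Lin- replicate 2, 3 genes passed, of which Aff1 and Malat1 are among these 4. Without Lin- replicate 3 only Aff1 passed, and without CD11b+ replicate 2, 32 genes did. With a CD11b+ library left out, the other is assumed to vary like the Lin- libraries, which alone give the spread.

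Aff1 (ENSMUSG00000029313, chr5:103692374-103855322) encodes the elongation cofactor whose sequence forms the second part of the fusion. It held 253, 320 and 225 peaks in Lin- replicates 1, 2 and 3, and 3 and 6 in CD11b+ replicates 1 and 2. All Lin- libraries lay far above both CD11b+ libraries, with peak shares of 307 ± 43.5 (SD, n = 3) and 4.74 ± 1.73 (SD, n = 2). The log2 difference, CD11b+ minus Lin-, was -5.90 (standard error 0.33, limma adjusted p = 0.00671). Every 1 of the 798 Lin- peaks on Aff1 lay in a coding exon, whereas 6 of the 9 CD11b+ peaks lay in introns. Along the gene, the Lin- peaks began 122.6 kb from its start and ran to 158.4 kb. Kmt2a (ENSMUSG00000002028, chr9:44803355-44881296), the mouse gene for MLL, the first part of the fusion, held 68, 118 and 33 against 6 and 27 peaks. Its groups did not overlap but its difference of -2.38 (standard error 0.72) did not pass the test (adjusted p = 0.117). On Kmt2a the Lin- peaks reached only 39.71 kb into a gene of 77.94 kb, and 216 of 219 were in coding exons. Peaks on the construct cannot be told apart from peaks on the mouse genes in these records. Where peaks within 50 bases of each other were merged, the Aff1 difference shrank to -2.03 and did not pass (adjusted p = 0.0683).

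Malat1 (ENSMUSG00000092341, chr19:5795690-5802672), an abundant nuclear long non-coding RNA, had 21, 77 and 21 peaks in Lin- and 0 and 0 in CD11b+ libraries. Over the libraries of each cell type its share was at least 28.2-fold higher in Lin- cells, taking 3 peaks over the CD11b+ libraries as the most that a count of 0 allows. Its log2 difference was -6.25 (standard error 0.56, limma adjusted p = 0.0345). The technical libraries did not show the same pattern, since their Lin- counts were 10, 35 and 15 and their CD11b+ counts 0 and 34, so the difference did not pass among them (adjusted p = 0.393). Malat1 was among the most abundant RNAs in both populations, at percentile ranks of 99.6 and 97.9 of the mean normalized RNA-seq count. The smInput libraries held 18 peaks on it in CD11b+ and 1 in Lin- cells, and peaks that overlap smInput peaks had been removed. Before that removal the difference was -6.03 and did not pass (adjusted p = 0.052), and it also missed the threshold without Lin- replicate 3 (adjusted p = 0.0566).

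Bahcc1 (ENSMUSG00000039741, chr11:120232947-120292296), which encodes a chromatin protein with a BAH domain, had 8, 11 and 12 peaks in Lin- and none in CD11b+ libraries. That was at least 7.36-fold higher in Lin- cells, with a log2 difference of -4.62 (standard error 0.37, adjusted p = 0.0182). Its 3 Lin- libraries were close to each other, at shares of 10.9, 10.9 and 13.8 per 10000. Of the 31 peaks, 18 were centred within 50 bases of a 3' splice site (8, 3 and 7 by library), and without such peaks the difference did not pass (adjusted p = 0.331). It also missed the threshold without Lin- replicate 2 (adjusted p = 0.0649) or Lin- replicate 3 (0.11). The RNA itself ranked at percentile 98.3 in Lin- and 52.5 in CD11b+ cells.

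Dnah8 (ENSMUSG00000033826, chr17:30624354-30877365), a heavy chain of axonemal dynein, showed the opposite pattern, with 0, 0 and 0 peaks in Lin- and 11 and 11 in CD11b+ libraries. Its share was at least 10.3-fold higher in CD11b+ cells, with a log2 difference of 4.63 (standard error 0.47, adjusted p = 0.0387). All 22 peaks were intronic and spread over 232 kb. The smInput libraries also held 9 peaks on this gene in CD11b+ and 1 in Lin- cells. RNA of Dnah8 ranked at percentile 51.5 in Lin- and 95.8 in CD11b+ cells. The call was lost on leaving out Lin- replicate 2 (adjusted p = 0.0649) or Lin- replicate 3 (0.11). A group of 1 CD11b+ library has no spread of its own, so for those fits only the difference is given, and they do not show that the call held. The difference was 4.52 without CD11b+ replicate 1 and 4.75 without CD11b+ replicate 2. Its size depends on the 0.5 added to Lin- shares of 0. With 1 added instead it was 3.69. Bahcc1 and Malat1, with CD11b+ counts of 0, then had differences of -3.68 and -5.27.

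**Figure D1:**
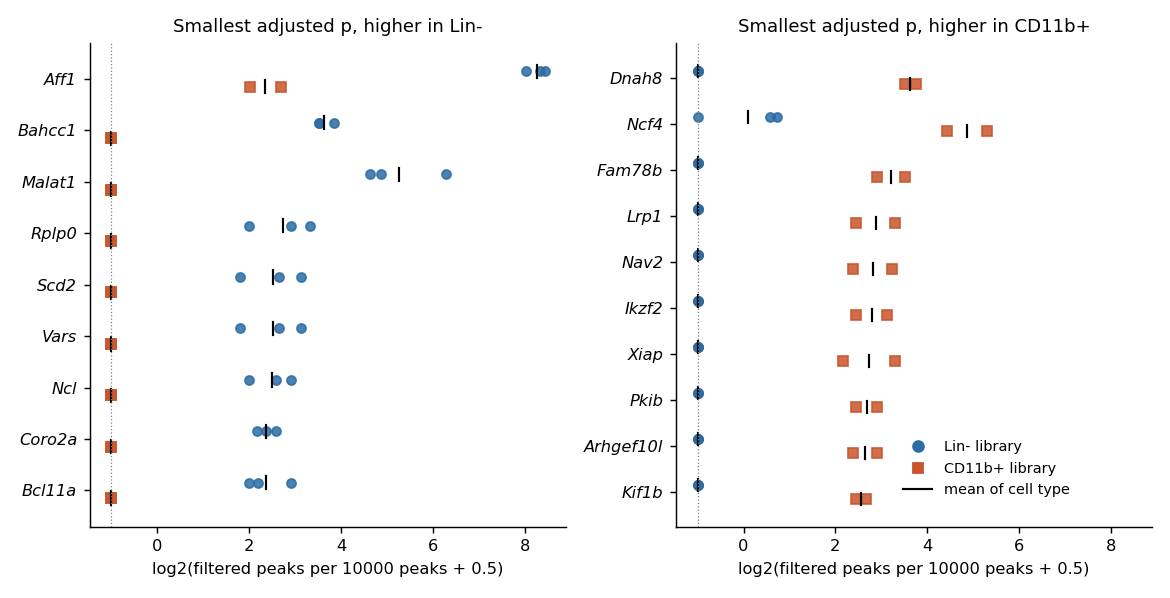
Peak share of genes of lowest adjusted p, 10 higher in CD11b+ and 9 higher in Lin- cells, on a log2 scale with 0.5 added, for each of 3 Lin- (circles) and 2 CD11b+ libraries (squares). Bars mark the mean of each cell type and the dotted line marks a share of 0. Of the genes shown, Aff1, Bahcc1, Malat1 and Dnah8 passed the test.

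The next genes in the order of adjusted p missed the threshold together, at an adjusted p of 0.0679, and are given as values. Ncf4, a cytosolic subunit of the phagocyte NADPH oxidase, had 0, 1 and 1 peaks in Lin- and 18 and 39 in CD11b+ libraries. Its 57 CD11b+ peaks lay within 1 stretch of the gene, from 11.57 to 12.35 kb after its start. The ratio of its pooled shares, CD11b+ over Lin-, was 40 with a 95% counting interval of 10.6 to 338.5. Fam78b had no peak in any Lin- library and 6 and 11 in CD11b+ libraries. The endocytic receptor gene Lrp1 likewise had 0 against 8 and 5, and the apoptosis inhibitor gene Xiap 0 against 8 and 4. Nav2, Ikzf2 (the transcription factor Helios), Pkib (an inhibitor of protein kinase A), Arhgef10l (a guanine nucleotide exchange factor) and Kif1b (a kinesin) were also without a peak in Lin- cells. They held 4 to 9 peaks in each CD11b+ library.

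On the Lin- side, Scd2, a fatty acid desaturase, had 6, 3 and 5 peaks against 0 and 0. The ribosomal stalk protein gene Rplp0 had 7, 7 and 3 against 0 and 0, and Ncl, which encodes nucleolin, 4, 7 and 3 against 0 and 0. Vars (valyl-tRNA synthetase), Coro2a (a coronin) and Bcl11a (a zinc finger transcription factor) held 3 to 7 peaks in each Lin- library and none in CD11b+ libraries. Cd69, an activation antigen of leukocytes that the study names, had 5, 3 and 4 peaks against 0 and 0. In each of these genes the lowest Lin- library was above both CD11b+ libraries. At an adjusted p below 0.1, a threshold added after the data had been seen, 120 genes (4.32%) were higher in CD11b+ and 124 (4.46%) higher in Lin- cells, 8.78% of genes tested.

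Among genes with the highest peak shares, Zeb2 and Dock2 led in CD11b+ cells. Zeb2 (ENSMUSG00000026872, chr2:44983632-45117395), which encodes a transcriptional repressor, had 13, 25 and 17 peaks in Lin- and 96 and 55 in CD11b+ libraries. The ratio of pooled shares was 3.86 (95% counting interval 2.81 to 5.35), and the test gave an adjusted p of 0.0766. Peaks on Zeb2 crowded into a 5-kb stretch starting 6.67 kb after the gene start, which held 28 of 55 Lin- and 97 of 151 CD11b+ peaks. Of its 56 merged sites, 19 had peaks of both cell types. Dock2 (ENSMUSG00000020143, chr11:34226815-34783892), a Rac exchange factor needed for leukocyte migration, had 1, 6 and 7 against 24 and 79 peaks. Its pooled ratio was 10.3 (5.89 to 19.6) and its adjusted p 0.0894. A single 5-kb stretch of this 557-kb gene held 77 of the 103 CD11b+ but 4 of the 14 Lin- peaks. Baz2b, a bromodomain chromatin gene, had 2, 6 and 7 against 20 and 37 peaks. The 2 CD11b+ libraries differed widely from each other on Dock2 and Zeb2, in opposite directions.

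**Figure D2:**
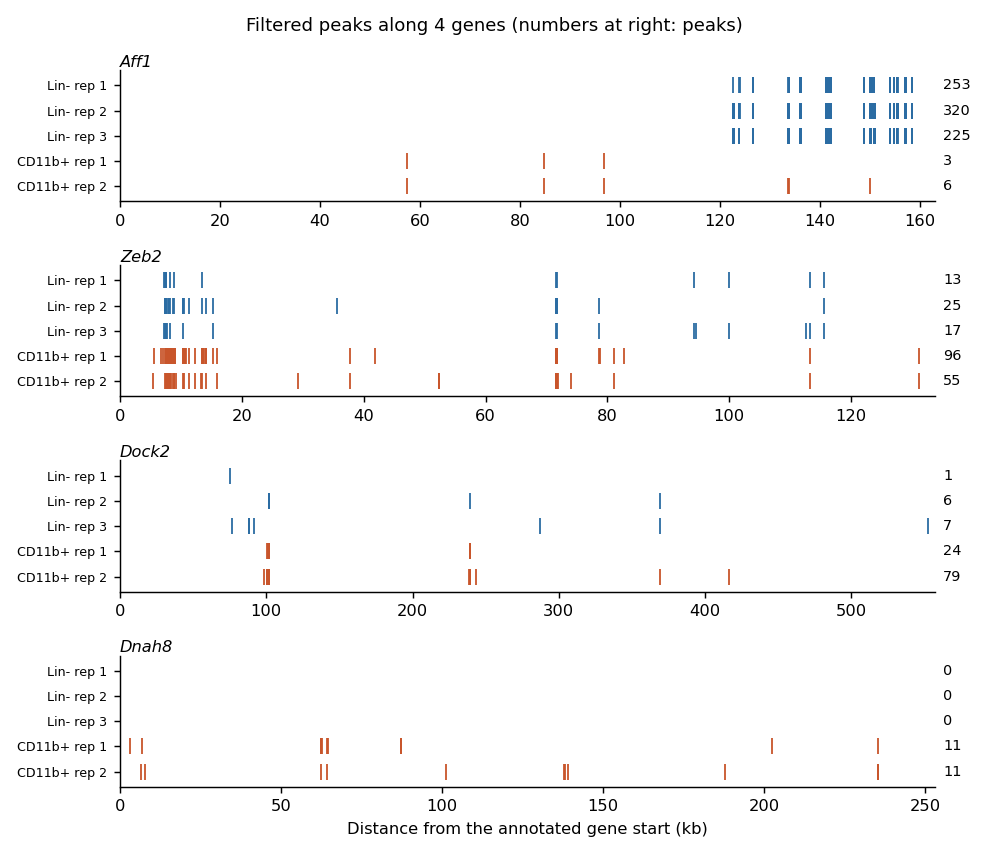
Centres of filtered peaks along Aff1, Zeb2, Dock2 and Dnah8, as distance in kb from the annotated gene start, with 1 row for each library and the number of peaks at the right. On Aff1 the Lin- peaks lie between 122.6 and 158.4 kb, on Dock2 most CD11b+ peaks lie in a single stretch near 100 kb, and on Dnah8 the Lin- rows are empty.

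Other genes at the top of both cell types did not pass the test. Xist had 90, 0 and 40 peaks against 13 and 79. Laptm5, a lysosomal membrane protein gene of hematopoietic cells, had 4, 41 and 17 against 6 and 8. Arid1a, a subunit of the SWI/SNF remodeling complex, had 16, 18 and 11 against 21 and 23 (adjusted p = 0.439), and Myh9, non-muscle myosin, 9, 9 and 10 against 10 and 33. Ogt, the enzyme that attaches O-GlcNAc to proteins, had 8, 6 and 9 against 23 and 10. Gm42418 had 12, 22 and 7 against 27 and 26 peaks, but its smInput libraries held 117 peaks in Lin- and 52 in CD11b+ cells. All 70 peaks of Atg16l1, an autophagy gene with 14, 26 and 8 against 9 and 13, lay inside more than 1 annotated gene of the strand and are of uncertain origin.

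As the expression control, each gene was given its percentile rank by the mean normalized count of the RNA-seq table of each cell type, which averages WT and IGF2BP3 KO libraries. Genes with more RNA in a cell type tended to have a larger share of its peaks. Across 2614 genes, the log2 share difference rose by 0.052 per percentile point of rank difference, with Pearson's r of 0.348 and a Spearman rank correlation of 0.336. These describe genes, which are not independent replicates. Groups did not overlap and were higher in CD11b+ cells for 97 of 194 genes (50%) that ranked more than 10 points higher there, and for 20 of 262 (7.63%) that ranked more than 10 points higher in Lin- cells. Of the 2158 genes within 10 points, 391 (18.1%) were higher in CD11b+ and 464 (21.5%) higher in Lin- cells, against 18.8% and 20.5% of all genes tested.

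With the line on expression rank subtracted, limma called 0 genes higher in CD11b+ and 3 (0.115%) higher in Lin- cells, and 265 and 306 genes had an unadjusted p below 0.05. Aff1 (adjusted difference -5.96, adjusted p = 0.00362) and Malat1 (-6.23, adjusted p = 0.0268) passed as before. The difference was 2.26 instead of 4.63 for Dnah8 and -2.31 instead of -4.62 for Bahcc1, and neither passed (adjusted p = 0.113 and 0.112). Rps10, a protein of the small ribosomal subunit, was the third gene called (-6.23 instead of -2.12, adjusted p = 0.0478 instead of 0.116). It had only 3, 3 and 3 peaks against 1 and 0, each inside more than 1 annotated gene, and its RNA ranked at percentile 15.1 in Lin- and 92.6 in CD11b+ cells. The call was kept without Lin- replicate 1 but lost without any other library (adjusted p from 0.0512 to 0.163), and Rps10 was not tested where a mean count of at least 10 was asked of both RNA tables. Ncf4 had an adjusted p of 0.112 in this fit, as did Xiap, Fam78b, Lrp1 and Rasgef1b, a gene with 0 peaks in Lin- and 2 and 4 in CD11b+ libraries. Their expression-adjusted differences were 4.11 for Ncf4, 3.86 for Xiap, 3.76 for Fam78b and 3.70 for Lrp1. Hist1h1d, a linker histone gene with 1, 14 and 5 peaks against 0 and 0, and Rplp0 followed on the Lin- side.

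**Figure D3:**
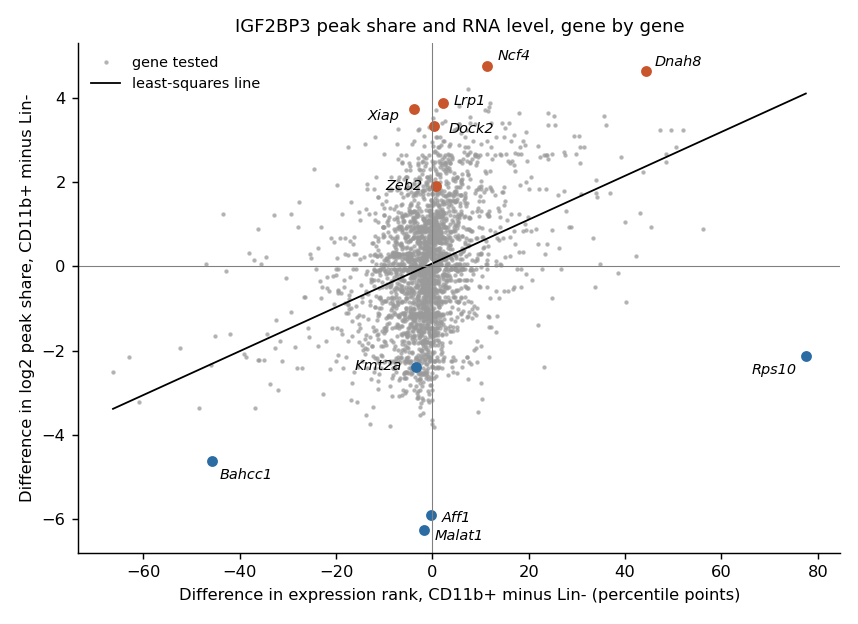
Difference in log2 peak share (CD11b+ minus Lin-) against difference in expression percentile rank for 2614 genes, with the least-squares line used for the expression-adjusted test. Aff1 and Malat1 sit near a rank difference of 0, while Bahcc1, Dnah8 and Rps10 lie far to the sides.

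Gene groups are described by how many tested members had peak shares that did not overlap between the cell types, beside 18.8% (higher in CD11b+) and 20.5% (higher in Lin-) of all 2778 genes, and by the median log2 difference, which was -0.07 over all of them. The lists were chosen with earlier results known, and no test was made over a list. Of 43 monocyte and macrophage genes, 29 had a peak and 15 were tested, of which 11 were higher in CD11b+ and 0 in Lin- libraries, with a median difference of 1.88. Their summed share was 36.7, 49.8 and 47.2 per 10000 in Lin- and 225 and 110 in CD11b+ libraries. Zeb2 gave 96 of the 192 and 55 of the 111 CD11b+ peaks. Itgam, which encodes CD11b itself, had 0, 1 and 1 against 6 and 8 peaks (adjusted p = 0.085). The chemokine receptor gene Ccr2 had 2, 1 and 0 against 13 and 3, and Irf8, a transcription factor of monocytes, 5, 10 and 10 against 17 and 7. All 16 peaks of Itgam and all 49 of Irf8 lay inside more than 1 annotated gene of the strand. With expression subtracted, the median of the list was 1.07. Of 21 neutrophil granule genes, 2 could be tested. Mpo, myeloperoxidase of primary granules, had 11, 2 and 5 against 0 and 0 peaks (adjusted p = 0.085), and Prtn3, proteinase 3, had 2, 0 and 1 against 4 and 3. Ctsg and Csf3r had 4 and 3 peaks in all.

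Markers of other lineages were nearly without peaks. One of 10 B-cell markers (Ebf1, 2 peaks in all), 1 of 12 T- and NK-cell markers (Bcl11b, 7 peaks, 6 of them in CD11b+ replicate 2), 1 of 12 erythroid markers and 1 of 10 megakaryocyte and mast cell markers (Itga2b, 2 peaks) had any. The erythroid gene was Tfrc, the transferrin receptor that dividing cells also carry, with 6, 3 and 1 against 0 and 1 peaks. Defining markers such as Cd79a, Cd3e, Hbb-bs and Pf4 had no peak.

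Genes of cell migration and engulfment were more often higher in CD11b+ than in Lin- libraries. Of 25 tested genes of the actin cytoskeleton and phagocytosis, 12 were higher in CD11b+ and 1 in Lin- libraries (48% and 4%), with a median of 0.89. Fnbp1, a membrane-bending F-BAR protein, had 3, 9 and 8 against 11 and 14 peaks. Tln1 (talin) had 8, 6 and 11 against 10 and 10, and Elmo1, a partner of DOCK proteins, 6, 8 and 11 against 2 and 15. Among DOCK, ARHGAP and ARHGEF regulators of small GTPases, 7 of 21 were higher in CD11b+ and 3 in Lin- libraries, with a median of 0.18. Arhgef1 (8, 9 and 10 against 12 and 10) and Dock8 (6, 6 and 7 against 3 and 13) did not separate, and Arhgef2 was on the Lin- side with 13, 10 and 8 against 7 and 2. Of 28 RAS, MAPK and PI3K genes, 8 were higher in CD11b+ and 2 in Lin- libraries, with a median of 0.54. Rasgrp2, an activator of RAP1, had 4, 2 and 5 against 14 and 8 peaks, and Pik3cd, a catalytic subunit of PI3K, 5, 4 and 4 against 7 and 8. Ccnd3 (cyclin D3) and Itga4 (an integrin of leukocytes) had overlapping counts of 2, 9 and 6 against 4 and 16, and of 3, 6 and 12 against 10 and 3.

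Genes of growth and RNA processing were more often higher in Lin- libraries. Of 13 tested cell division genes, 10 were higher in Lin- and 0 in CD11b+ libraries (76.9%), with a median of -2.25. Top2a, topoisomerase II of dividing cells, had 11, 4 and 8 peaks against 0 and 1, and the replication helicase gene Mcm7 8, 8 and 6 against 0 and 4. The condensin gene Smc4 had 6, 6 and 3 against 5 and 5. Ncapd2, also of condensin, had 4, 13 and 4 against 14 and 11, but all 46 of its peaks lay inside more than 1 annotated gene of the strand, as did 15 of Mcm7 and 9 of Smc4, and the smInput libraries held 15 peaks on Ncapd2 in each cell type. Of 73 ribosomal protein and translation factor genes, 39 were higher in Lin- and 3 in CD11b+ libraries (53.4% and 4.11%), with a median of -1.44. Their median difference in RNA rank was 0.009 points, on a percentile scale that can change little near its top. Eef1a1, the elongation factor that delivers aminoacyl-tRNA, had 8, 20 and 9 against 2 and 2 peaks (adjusted p = 0.0766). Its RNA ranked at percentile 99.987 in Lin- and 99.996 in CD11b+ cells. Rps3, Rpl4 and Eif4g2 had the most peaks besides, but many of these lay inside more than 1 annotated gene of the strand (50, 35 and 34 peaks), and their groups overlapped. Of 49 splicing factor and hnRNP genes, 24 were higher in Lin- and 2 in CD11b+ libraries, with a median of -0.71. Hnrnpu had 13, 20 and 12 against 7 and 6 peaks, Srrm2 10, 14 and 12 against 11 and 7, Rbm5 8, 11 and 13 against 8 and 8, and Hnrnph1 15, 8 and 9 against 11 and 7. Chromatin regulators were mixed, with 9 of 56 higher in CD11b+ and 18 in Lin- libraries. Brd2, a reader of acetylated histones, had 12, 16 and 10 against 7 and 6 peaks, while the methyltransferase gene Kmt2d had 10, 9 and 6 against 15 and 7.

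**Figure D4:**
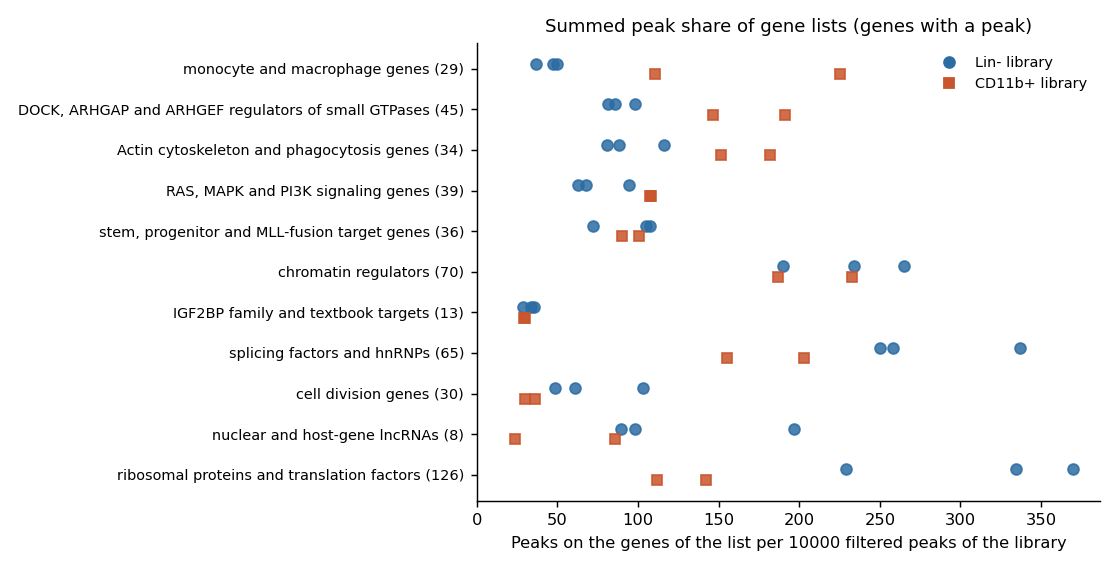
Summed peaks on the genes of each list per 10000 filtered peaks, for each of 3 Lin- (circles) and 2 CD11b+ libraries (squares), with the number of genes that had a peak in brackets; the Kmt2a and Aff1 pair and lists with under 5 tested genes are left out. Monocyte and macrophage genes lie at 110 or more in both CD11b+ libraries and below 50 in each Lin- library.

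Stem, progenitor and MLL-fusion target genes were bound in both populations. Of 23 tested, 3 were higher in CD11b+ and 8 in Lin- libraries, with a median of -0.08, and their summed shares overlapped at 72, 108 and 105 against 90.4 and 100.5 per 10000. Runx1 had 4, 10 and 8 against 9 and 20 peaks, Runx2 4, 14 and 6 against 6 and 12, Etv6 5, 4 and 8 against 5 and 12, and Myb 6, 3 and 8 against 6 and 8. Hoxa9, a central target of MLL fusions, had 4, 6 and 4 against 7 and 3 peaks (adjusted p = 0.939), and Hoxa7 and Hoxa10 had 2 and 3 peaks in all. Igf2bp3 itself had 1, 2 and 2 against 1 and 3 peaks (adjusted p = 0.96). Among IGF2BP textbook targets, Myc had 3, 5 and 4 against 1 and 2 peaks (adjusted p = 0.113), Cdk6 0, 5 and 3 against 7 and 8 (0.33), Actb 9, 9 and 12 against 9 and 7, and Hmga1 2, 2 and 3 against 1 and 3. Other genes that the study names had few peaks. Csf2rb had 0, 1 and 2 against 3 and 4, Notch1 4, 6 and 3 against 1 and 6, and Ccnd1 2, 3 and 0 against 1 and 0. Maf had 2 peaks, both in CD11b+ replicate 1, Itga6 had 3 and Klf4 had none. Of the nuclear and host-gene long non-coding RNAs, Mir17hg, which carries the miR-17-92 cluster, had 5, 9 and 6 against 3 and 3, all inside more than 1 annotated gene of the strand.

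The sharing of bound genes was greater within than between cell types. As the genes in both libraries over the genes in either, it was 40.6% to 45.9% for the 4 pairs of libraries of the same cell type and 32.5% to 37% for the 6 pairs across cell types. The lowest pair within a cell type, Lin- replicates 1 and 2, was above the highest pair between. The means of 43.8% and 35% differed by 8.79 percentage points, which gave p = 0.1 in a two-sided exact permutation test over the 10 ways to choose the CD11b+ libraries, the smallest p this design allows. In all 5 libraries 1114 genes had a peak.

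In those 1114 genes, the place of peaks relative to 3' splice sites was compared, a measure added after the data had been seen. The peak centre lay within 50 bases of an annotated 3' splice site for 50.6%, 23.9% and 43.3% of peaks in Lin- and for 13.3% and 12.2% in CD11b+ libraries. All Lin- libraries were above both CD11b+ libraries, and the means of 39.3% ± 13.8 (SD, n = 3) and 12.8% ± 0.798 (SD, n = 2) differed by -26.5 percentage points. The exact permutation test gave p = 0.2, because the split that sets Lin- replicates 1 and 3 apart gave a larger difference. Without Kmt2a and Aff1 the difference was -28.1 points. Over all genes the shares were 58.2%, 21% and 43.8% against 11.3% and 9.87%. Most of these peaks lay on the intron side, from 82.8% to 96.7% of them by library, with a median centre 18 to 25 bases before the exon. Their bases were C or T in 58.8% to 60.7% on average, and 42.4% to 52.6% in the other peaks of the same libraries.

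The technical libraries gave 20% to 55.1% in Lin- and 7.09% and 9.46% in CD11b+ cells. Of 7417 splice sites with such a peak, 368 on 314 genes had one in each Lin- and in no CD11b+ library, 79 on 75 genes the reverse, and 101 on 93 genes in all 5. Serinc3, a serine incorporator, had 15, 288 and 107 reads at its site in Lin- replicates and 0 in CD11b+. The heat shock chaperone gene Hspa8 had 225, 15 and 31 against 0 and 0. At the Srrm2 site printed above, all libraries had reads, 28, 65 and 106 against 163 and 110. The Csf2ra site, in the gene of the GM-CSF receptor alpha chain, had 41 and 64 reads in CD11b+ and none in Lin- libraries, and that of Klf2, a zinc finger transcription factor, 16 and 40 and none.

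**Figure D5:**
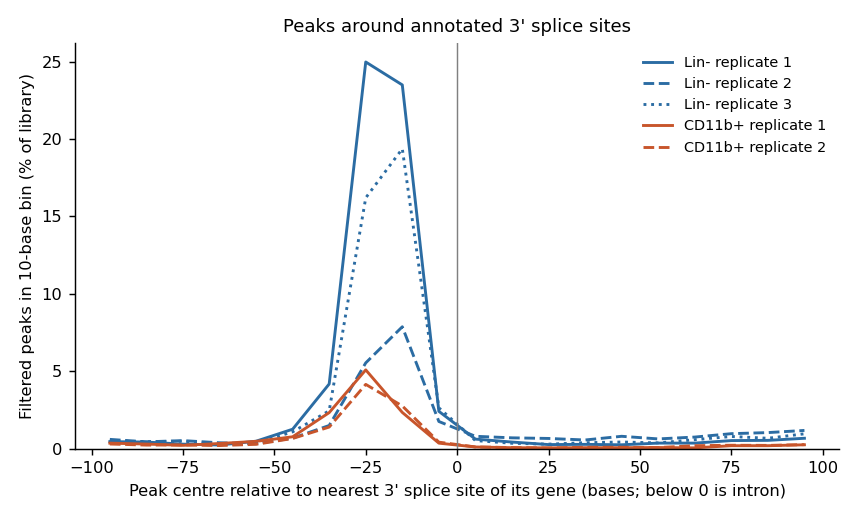
Filtered peaks of each library by the distance of their centre from the nearest annotated 3' splice site of the same gene, in bins of 10 bases, as a percent of all filtered peaks of the library. The highest bin holds 25% of peaks in Lin- replicate 1, and the maximum of Lin- replicate 2 lies between those of the other Lin- and of the CD11b+ libraries.

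The gene-level counts moved with this measure. Genes whose shares were higher in Lin- cells without overlap were short, with a median length of 20.3 kb, against 61.4 kb for those higher in CD11b+ cells and 32.3 kb for all genes tested. Near 3' splice sites lay 62.6%, 32.3% and 49.5% of the Lin- peaks of the first group, and 44.7%, 14.2% and 39.1% of those of the second. For the 1686 other genes tested the Lin- values were 53%, 18.8% and 42.8%. The CD11b+ values were 24% and 26.5% for the first group, 5.92% and 5.95% for the second and 14% and 11.3% for the others. The groups were chosen by counts of the same peaks, so these values are no independent support. With peaks near 3' splice sites left out, the genes without overlap were 546 (19.7%) higher in CD11b+ and 292 (10.5%) higher in Lin- cells. These percents, and the counts by list that follow, are of the genes tested before the removal. After it, 1932 genes still had at least 5 peaks. The removal took a larger part of Lin- than of CD11b+ peaks, and the effect of lost peaks on these counts was not tested. The counts on the Lin- side were then 3 of 13 instead of 10 for cell division genes, 15 of 73 instead of 39 for ribosomal proteins and translation factors and 17 of 49 instead of 24 for splicing factors. On the CD11b+ side they were 7 of 15 instead of 11 for monocyte and macrophage genes and 16 of 25 instead of 12 for actin and phagocytosis genes. The part of splice-site peaks in the differences between genes was not tested further.

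By the annotated region at the peak centre, introns held most peaks of the 1114 genes, 74.1% ± 8.11 (SD, n = 3) in Lin- and 82.8% ± 4.66 (SD, n = 2) in CD11b+ cells, a difference of 8.70 points (exact permutation p = 0.4). Coding exons held 12.5%, 20.5% and 10.8% in Lin- against 3.72% and 2.67% in CD11b+ libraries, a difference of -11.4 points without overlap (exact permutation p = 0.1). Where any overlap of the whole peak with a coding exon counted, the differences were -37.0 points for coding exons and 34.5 for introns (exact permutation p = 0.1 for both), and with peaks of CLIPper p below 0.001 they were -17.9 and 14.7. Counting any overlap places peaks that are centred in an intron but reach a coding exon among the coding exon peaks. At the peak centre, much of the coding exon difference was on the fusion genes. Without Kmt2a and Aff1 coding exons held 2.81%, 11.3% and 3.92% against 3.56% and 1.91%, and the groups overlapped (exact permutation p = 0.5). The 3'UTR held 2.56%, 4.44% and 3.7% in Lin- and 9.87% and 4.6% in CD11b+ libraries, a difference of 3.67 points (exact permutation p = 0.1). It rested on CD11b+ replicate 1, without which it was 1.15 points. Without the fusion genes the 3'UTR shares overlapped (exact permutation p = 0.2).

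The CA-rich 6-base motifs ACACAC and CACACA, which overlap each other and were searched on the transcript strand of each peak, occurred in 4.96%, 7.83% and 8.29% of Lin- peaks and 7.72% and 16.3% of CD11b+ peaks of the same genes. The groups overlapped, and the difference of 5.0 points had an exact permutation p of 0.3. It rested on CD11b+ replicate 2, without which it was 0.747 points. Over the peaks of each direction, the motifs were in 17% of the CD11b+ peaks on the 523 genes higher in CD11b+ cells and in 3.29% of the Lin- peaks on the 569 genes higher in Lin- cells. For the same 523 genes the Lin- libraries also had a value of 16.9%. For the 569 genes the CD11b+ libraries had a value of 6.54%. Over all genes tested, the motifs were in 14.35% of CD11b+ and 7.58% of Lin- peaks. The 523 and 569 genes were chosen by counts of the same peaks, so these values are no independent support.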

How the data were processed

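The 5 biological eCLIP libraries and their smInputs came from WT/MLL-Af4 cells. Per the file headers, reads were trimmed, filtered for repeats, mapped to mm10 with STAR and deduplicated by molecular identifier. CLIPper peaks of single libraries were then cleared of those overlapping smInput peaks. The submitters' processing notes name STAR 2.5.3a, Bowtie2 and DESeq2. The deposited peak lists hold a p-value for each peak, of at most 0.05, and a name whose last number was read as the reads in the peak. The authors also deposited, per cell type, a table with a normalized mean count (a signal over WT and IGF2BP3 KO RNA-seq libraries, used here only for ranks) and columns of their own fold changes and tests, which were not used.

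Peaks were counted per host gene, and 23620 genes in both tables were ranked. Shares per 10000 peaks, on a log2 scale with 0.5 added, were fitted with limma 3.58.1 (R 4.3.3) with a trend and robust moderation for genes with at least 5 peaks, after testing on simulated data. The expression-adjusted fit subtracted a least-squares line. Locations and splice sites came from GENCODE M21 (basic) and sequences from the RefSeq GRCm38.p6 assembly, with pysam 0.24.0, pandas 2.3.3 and SciPy 1.17.1. Exact permutation tests were two-sided. Counting intervals are exact, at 95%, and cover counting error only.

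The members, lists and rules were chosen with earlier results of these data known. Named were the 10 genes of lowest adjusted p for either cell type, the 10 with the highest mean share per cell type, 5 per direction from the expression-adjusted fit, up to 4 members per list by number of peaks, and genes the study names. Pseudogene copies and the Rps6k kinases, which prefixes of the ribosomal list also took in, were left out. Some items that the rule names are not reported here. Alternatives left out each library, changed filters, thresholds, scaling and model, or used the technical libraries. The threshold of 0.1, the equal number of strongest peaks, reads in place of peaks, the exclusion of Kmt2a and Aff1 from locations and every 3' splice site measure were added after the data had been seen.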

Additional observations from a re-analysis of the deposited data

Results flagged for a closer look

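Malat1 had 34 peaks in CD11b+ technical replicate 4 but none in either CD11b+ biological library, and no CD11b+ smInput library held more than 10. Gm26917 had 21 peaks in CD11b+ technical replicate 3 and none in the CD11b+ biological libraries, against at most 7 in a CD11b+ smInput library. Both stood out as peaks in libraries that the comparison did not use. Groups of 3 and 2 libraries were too small for an outlier test.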

How the results depend on the processing

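The number of genes called was sensitive to how peaks were weighed. In place of 4 genes, limma called 244 at an adjusted p below 0.1, 39 with at least 10 peaks, 182 with a CLIPper p below 0.001, 157 with the strongest peaks in equal number per library, 339 with reads in place of peaks and 154 in the technical libraries alone. It called 2 with peaks within 50 bases merged, 2 with peaks over 50 bases from a 3' splice site, and 1 (without Lin- replicate 3) to 32 (without CD11b+ replicate 2) on leaving out 1 library. A quasi-Poisson model called 0, with 550 genes at an unadjusted p below 0.05. Beyond expression rank, in place of 3 genes, the count was 155 with a CLIPper p below 0.001, 273 with reads, 2 to 3 on leaving out 1 library, and 1 with at least 1 peak, before the smInput filter, with merged peaks and with the strongest peaks. Same-numbered libraries of the cell types deviated from their group means with correlations of -0.014 and 0.036, so the numbers were not taken as pairs. With the replicate number as a block, limma called 198 genes and, beyond expression rank, 101. In that fit Lin- replicate 3 has no CD11b+ partner and adds nothing to the difference, and few degrees of freedom remain. The causes were not tested.

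Leaving out 1 library, the difference was 7.46 to 10.7 points for sharing, -34.5 to -20.4 near 3' splice sites, 3.91 (without Lin- replicate 2) to 11 in introns, -12.7 to -7.68 in coding exons, 1.15 (without CD11b+ replicate 1) to 6.81 in the 3'UTR, -2.49 to -0.174 in the 5'UTR, -0.25 to 0.183 in non-coding exons and 0.747 (without CD11b+ replicate 2) to 9.0 for the CA motifs. Non-coding exons, at 0.17 points, reversed before the smInput filter (-0.0621), outside Kmt2a and Aff1 (-0.106) and over all genes (-2.45). By the whole peak instead of its centre the difference was -37.0 points in coding exons and 34.5 in introns. CACA in place of the 6-base motifs gave -0.0932 points. Exact permutation cannot give a p below 0.1 here, and unknown read depth limits every statement on genes without a peak.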

Other observations

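A few genes had many peaks in all but 1 library of a cell type. Besides Xist and Neat1, these were Cmip, an adaptor of cell signaling (2, 5 and 3 peaks in Lin-, 0 and 12 in CD11b+ libraries), Sh3kbp1, an adaptor in receptor endocytosis (0 against 0 and 10), and Wdr43, a ribosome biogenesis factor (4, 7 and 3 against 0 and 11). In the technical libraries the counts were 73, 104 and 29 against 12 and 38 for Xist, and 13, 0 and 10 against 0 and 0 for Neat1. Sh3kbp1 had 1, 0 and 0 against 1 and 12 there, and Wdr43 had 5, 7 and 2 against 0 and 11.

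Of the 523 genes with a higher share in CD11b+ cells without overlap, 318 (60.8%) also did not overlap in that direction in the technical libraries, as did 19% of all genes tested. Of the 569 genes higher in Lin- cells, it was 245 (43.1%), against 17.8%. No label ties a technical library to a biological one, and the technical libraries are not counted as independent samples.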
